A study of Homo sapiens with 2 samples.

Results

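Transcripts of 36 genes that encode apolipoproteins and the proteins that assemble, remodel, export and take up lipoproteins were examined in HepG2 cells loaded with fatty acid, without and with 9-cis-RA. The genes were chosen by name, with earlier results of these data known. They are 17 apolipoproteins, 2 assembly factors, 3 lipases, 2 lipase inhibitors, 3 plasma remodelling proteins, 4 sterol efflux transporters and 5 genes of receptors, sorting and receptor turnover. All 36 were found among the 60623 gene entries, and 33 of them had at least 10 counts over both libraries and were compared. HepG2 is a human hepatocellular carcinoma line that secretes lipoproteins but keeps a tumor cell's version of hepatocyte metabolism. Both groups were WT cells of this line in 1 batch and received 1 mM FFA, a mix of oleic and palmitic acid bound to bovine serum albumin, for 24 h. The FFA group received nothing further, and the FFA + 9-cis-RA group was given 9-cis-RA at 10 μM over 24 h as well, an isomer of retinoic acid and a ligand of RXR and RAR. The DMSO solvent was matched across groups. Each group is 1 library, so there is no replicate error, no p-value and no test of the conditions.

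Lipoproteins carry triglyceride and cholesterol through plasma in particles wrapped by apolipoproteins. The hepatocyte builds VLDL on APOB, to which MTTP adds lipid, and it starts HDL by secreting APOA1, which takes up cholesterol at ABCA1. Lipases, transfer proteins and LCAT then remodel the particles, and receptors return them to the liver. RXR pairs with LXR, FXR, PPAR and RAR, receptors for which several of these genes are textbook targets. The study asked which transcripts respond to RXR activation in steatotic cells, and lipoprotein genes are one arm of that question.

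The libraries held 60821539 counted fragments for FFA and 57669670 for FFA + 9-cis-RA. Of the hepatocyte markers ALB, TTR, SERPINA1, AFP, TF and FGB, all 6 were detected, with a summed level of 9639.8 and 7142 TPM (counts divided by the exonic length of the gene and scaled to the same sum in each library). ALB, AFP, TF and TTR were lower in the FFA + 9-cis-RA library, with AFP at a log2 fold change of -0.99, while FGB was higher at 0.84 and SERPINA1 at 0.036. Markers of other liver cell types summed to 20.3 and 14.6 TPM, most of it ACTA2, and PTPRC was at 0 counts in both libraries. The retinoid response gene CYP26A1 was at 4 counts in FFA and at 709 in the library labelled FFA + 9-cis-RA. Whether the shift in hepatocyte markers has a part in the values below was not tested. In a bulk library, fewer cells that express a gene and less RNA per cell cannot be told apart.

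Levels, compared between genes per exonic length, ran in FFA from 0 for LPL and 0.0156 TPM for ABCG1 to 3655 TPM for APOA1. Exonic length covers all annotated exons of a gene and can exceed the length of its transcript, so the order of genes depends on it. On the TPM scale APOA1, the main protein of HDL, had the highest level of the 36 genes in both libraries, at 3655 TPM in FFA and 3997 TPM in FFA + 9-cis-RA. APOA2, the next most common HDL protein, followed at 2452 and 2246 TPM, and APOB, the structural protein of VLDL and LDL, at 843 and 929 TPM. The order below these differed between the libraries. In FFA it ran APOE, APOH, ANGPTL8, with 671, 650.4 and 397 TPM, and in FFA + 9-cis-RA it ran ANGPTL8, APOE, APOH, with 706, 493 and 330.3 TPM. Among the 32 neighbouring pairs in the order of the 33 compared genes, the exact 95% counting intervals of the levels overlapped for 13 pairs in each library, such as APOL2 and APOL1. The 17 apolipoproteins together held 0.803% of the counted fragments in FFA (exact 95% interval 0.801 to 0.806) and 0.805% in FFA + 9-cis-RA (0.803 to 0.808). Their share of all TPM was 0.884% in FFA and 0.852% in FFA + 9-cis-RA. The 36 genes held 0.885% of the counted fragments in FFA and 0.902% in FFA + 9-cis-RA. Their summed level was 0.948% and 0.947% of all TPM. Within that sum the share of APOA1 was 38.6% in FFA and 42.2% in FFA + 9-cis-RA, and the share of APOH was 6.86% and 3.49%.

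**Figure D1:**
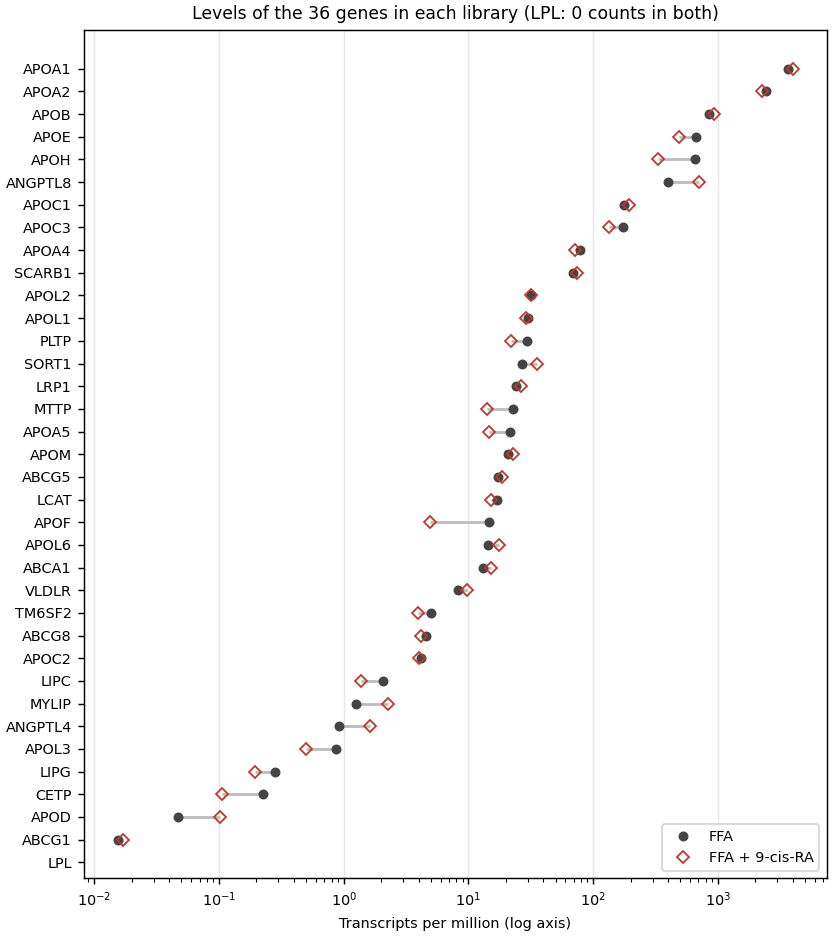
Levels of the 36 genes in TPM on a log axis, 1 filled circle for the FFA library and 1 open diamond for the FFA + 9-cis-RA library per gene, ordered by the FFA library. APOA1 has the highest level in both libraries, APOF and APOH sit lower in FFA + 9-cis-RA and ANGPTL8 sits higher, and LPL has no point because it had 0 counts in both.

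Differences are given as the log2 fold change of FFA + 9-cis-RA against FFA, from counts divided by DESeq2 size factors plus a pseudocount of 1, with an exact 95% interval that covers counting error only and compares these 2 libraries. Of the 33 compared genes, 10 had an interval above 0 and 17 had one below 0, against 22.5% and 25.7% of the 20431 genes compared in all. Abundant genes pass this rule more easily, and among genes with at least 1000 counts the shares were 34.4% above and 34.7% below, against 8 and 12 of 24 genes of the list. No gene of the list was above 1, against 3.37% of all compared genes, and 3 were below -1, against 4.90%. These 3 were APOF, APOH and CETP, and the whole interval was below -1 for APOF and APOH, a condition met by 0.930% of all compared genes. No gene of the list had its whole interval above 1, against 0.387%. With a smaller threshold of 0.5, chosen after the values were seen, 3 genes were above 0.5, against 9.03% of all compared genes. Another 9 were below -0.5, against 14.3%. Among genes with at least 1000 counts, ANGPTL8 alone of the 24 was above 0.5, against 1.73% of such genes, and APOH, MTTP, APOA5 and APOE were below -0.5, against 4.38%. PLTP lay just outside that threshold at -0.4996. The median of the 33 genes was -0.15 and that of all compared genes -0.020, and for genes with at least 1000 counts the medians were -0.041 and 0.0062.

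**Figure D2:**
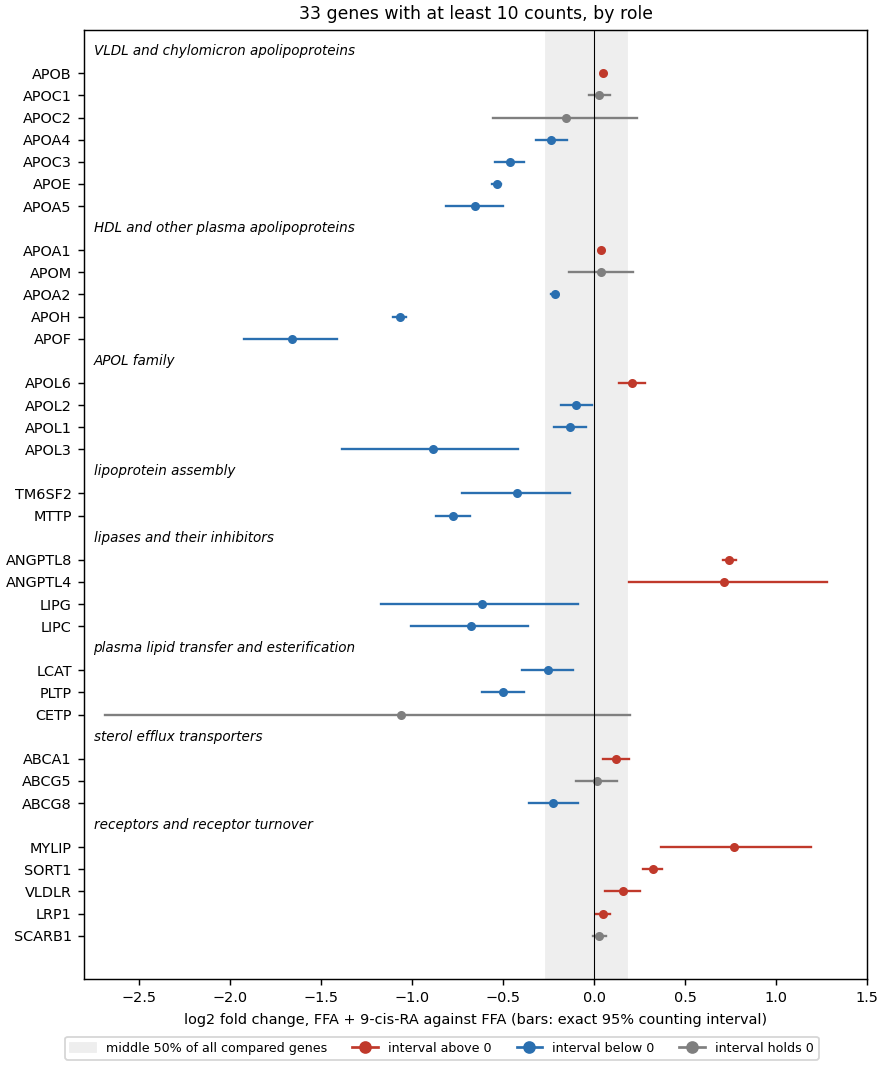
Log2 fold change of FFA + 9-cis-RA against FFA for the 33 genes with at least 10 counts, grouped by role, with bars for the exact 95% counting interval and a grey band for the middle 50% of all compared genes (-0.26 to 0.18). Both assembly factors lie below 0, and all 5 genes of receptors, sorting and receptor turnover lie above 0. LIPC and LIPG lie below 0, and ANGPTL8 and ANGPTL4 lie above 0.

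Of the 7 apolipoproteins of VLDL and chylomicron metabolism, APOB was close to level between the libraries while APOA5, APOE, APOC3 and APOA4 were lower in FFA + 9-cis-RA. APOB had 262363 counts in FFA and 266440 in FFA + 9-cis-RA, which gives 0.050 (95% interval 0.042 to 0.058). This excludes 0 at the depth of APOB, and the fold is 1.04. APOA5, a plasma protein that favors triglyceride breakdown by LPL, had 883 and 550 counts, at -0.65 (-0.81 to -0.50). APOE, the ligand by which remnant particles are taken up, had 30317 and 20524 counts, at -0.54 (-0.56 to -0.51). The intervals of both lie below that of APOB. APOC3, an inhibitor of remnant clearance, had 3085 and 2197 counts, at -0.46 (-0.54 to -0.38). APOA4, a protein of chylomicrons and HDL, had 2424 and 2020 counts, at -0.24 (-0.32 to -0.15). APOC1, which restrains CETP, had 4598 and 4603 counts and an interval that held 0 (-0.030 to 0.088). For APOC2, the cofactor of LPL, 117 and 103 counts gave an interval from -0.55 to 0.24, which holds 0. Reads that overlap several genes were not counted, and such overlap on the same strand covers 43.2% of the exonic bases of APOC1 and 55.7% of those of APOC2.

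The upstream sequence of the 2 members of this group with a value past 0.5 in size and at least 1000 counts is given from RefSeq, as the 250 bases before the start of transcription, so that the promoters of genes that differed can be read beside their values. That of APOA5 lies at chr11:116792421-116792670 (GRCh38.p14, minus strand) and that of APOE at chr19:44905546-44905795 (GRCh38.p14, plus strand). Both genes have further starts in the table, of which the first is shown. Capitals mark the nuclear receptor half-site AGGTCA, the CCAAT box, the E-box CACGTG and the TATA box TATAAA, on either strand.
APOA5 promoter: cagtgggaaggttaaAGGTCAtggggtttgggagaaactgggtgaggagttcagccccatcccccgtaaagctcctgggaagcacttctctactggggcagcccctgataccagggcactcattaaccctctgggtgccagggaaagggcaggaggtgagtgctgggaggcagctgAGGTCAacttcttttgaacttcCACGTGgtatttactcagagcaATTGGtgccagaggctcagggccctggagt
APOE promoter: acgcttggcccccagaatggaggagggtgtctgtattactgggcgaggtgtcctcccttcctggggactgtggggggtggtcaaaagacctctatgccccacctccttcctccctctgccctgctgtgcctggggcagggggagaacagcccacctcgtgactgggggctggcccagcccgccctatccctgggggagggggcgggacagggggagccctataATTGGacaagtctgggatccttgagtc
The APOA5 sequence held AGGTCA at 235 and at 74 bases before the start, a CCAAT box and an E-box. The APOE sequence held 1 CCAAT box at 27 bases before the start and no AGGTCA.

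Among the apolipoproteins of HDL and other plasma apolipoproteins, APOF and APOH were the 2 genes with the lowest values, APOA1 was slightly higher in FFA + 9-cis-RA and the interval of APOM held 0. APOF, a regulator of lipid transfer between HDL and LDL, lies on chromosome 12 from 56360568 to 56362857 and had 539 counts in FFA and 167 in FFA + 9-cis-RA. Its log2 fold change was -1.66 (-1.92 to -1.41), a fold of 3.15 higher in FFA, and 1.48% of all compared genes had a lower value. APOH, the phospholipid-binding beta-2-glycoprotein I, had 18182 and 8508 counts, at -1.07 (-1.11 to -1.03). These differences are far outside counting error, and the spread between cultures was not measured. APOA2 had 48638 and 41057 counts, at -0.22 (-0.24 to -0.20), and APOA1 had 109241 and 110072 counts, at 0.039 (0.026 to 0.051). The interval of APOA2 lies below that of APOA1. APOM, the HDL protein that carries sphingosine 1-phosphate, had 537 and 541 counts and an interval of -0.14 to 0.21. APOD, a small lipocalin, had 2 and 4 counts and was not compared. The sequence upstream of APOH, the member with the largest difference among those with at least 1000 counts, lies at chr17:66229416-66229665 (GRCh38.p14, minus strand).
APOH promoter: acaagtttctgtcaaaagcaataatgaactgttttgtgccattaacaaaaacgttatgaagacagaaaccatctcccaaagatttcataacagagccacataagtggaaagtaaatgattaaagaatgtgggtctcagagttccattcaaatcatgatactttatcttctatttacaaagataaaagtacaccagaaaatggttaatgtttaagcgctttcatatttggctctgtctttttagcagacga
It held none of the marked motifs and is rich in A and T, with a GC content of 33.2%.

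The APOL family, named for APOL1, the trypanosome-killing protein of HDL, also holds intracellular proteins. APOL1 had 2216 and 1983 counts, at -0.13 (-0.22 to -0.045), and APOL2 had 2279 and 2091 counts, at -0.097 (-0.18 to -0.010). With total-count scaling the intervals of both held 0. APOL6 was the single member of the 4 with a higher value, from 3033 to 3435 counts at 0.21 (0.14 to 0.28). APOL3 had 108 and 57 counts, at -0.88 (-1.38 to -0.42), so the member with the fewest counts had the largest difference.

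The lipoprotein assembly factors were both lower in FFA + 9-cis-RA. MTTP, the microsomal protein that loads triglyceride onto APOB, lies on chromosome 4 from 99563761 to 99623999 and had 2568 counts in FFA and 1472 in FFA + 9-cis-RA. Its log2 fold change was -0.77 (-0.87 to -0.68), and 8.04% of all compared genes had a lower value. TM6SF2, an endoplasmic reticulum protein needed for full lipidation of VLDL, had 229 and 167 counts, at -0.43 (-0.72 to -0.13). A same-strand gene shares 46.7% of the exonic sequence of TM6SF2. The ratio of 2 genes within a library does not depend on how the libraries are scaled. Per base of exonic length, MTTP stood at 0.0269 of APOB in FFA and 0.0152 in FFA + 9-cis-RA, a log2 change of the ratio of -0.83 (95% interval from the 4 counts -0.92 to -0.73). The ratio of TM6SF2 to APOB differed by -0.48 (-0.77 to -0.19) on the same scale. The transcripts of the loading proteins were thus lower relative to that of the protein they load. MTTP has a pair of starts in the RefSeq table. The sequence before the second is shown because it held some of the motifs searched for, and it lies at chr4:99574574-99574823 (GRCh38.p14, plus strand).
MTTP promoter: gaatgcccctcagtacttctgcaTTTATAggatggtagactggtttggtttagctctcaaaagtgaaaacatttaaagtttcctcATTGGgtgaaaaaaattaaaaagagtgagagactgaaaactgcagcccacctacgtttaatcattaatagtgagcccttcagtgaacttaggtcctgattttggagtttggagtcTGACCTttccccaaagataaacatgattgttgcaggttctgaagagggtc
It held AGGTCA on the minus strand 50 bases before the start, read as TGACCT, with a CCAAT box and a TATA box letter match farther up. The sequence before the first start held none of the motifs.

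The lipases that were compared were lower in FFA + 9-cis-RA, and the listed lipase inhibitors were higher. LIPC, the hepatic lipase, had 216 counts in FFA and 132 in FFA + 9-cis-RA, at -0.68 (-1.01 to -0.36), and LIPG, the endothelial lipase that acts on HDL phospholipid, had 77 and 49 counts, at -0.61 (-1.17 to -0.089). The interval of LIPG held 0 once the expression trend was removed. LPL, the lipase of muscle and fat capillaries, had 0 counts in both libraries, which allows up to 3 counts, or 0.0346 TPM in FFA and 0.0376 TPM in FFA + 9-cis-RA. Both inhibitors were higher. ANGPTL8, a feeding-induced protein that restrains LPL, had 10177 and 16706 counts, at 0.74 (0.71 to 0.78). ANGPTL4, a fasting-induced inhibitor and textbook PPAR target, had 48 and 78 counts, at 0.72 (0.19 to 1.28). ANGPTL8 thus carried the one value above 0.5 on the list with at least 1000 counts, with 94.7% of all compared genes below it. The sequence upstream of ANGPTL8 lies at chr19:11239369-11239618 (GRCh38.p14, plus strand).
ANGPTL8 promoter: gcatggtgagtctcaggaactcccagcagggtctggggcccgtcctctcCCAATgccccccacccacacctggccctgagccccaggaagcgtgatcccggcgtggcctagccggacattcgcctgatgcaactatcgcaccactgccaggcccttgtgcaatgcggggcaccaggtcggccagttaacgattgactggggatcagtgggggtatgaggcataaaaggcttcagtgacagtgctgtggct
It held 1 CCAAT box at 201 bases before the start and no AGGTCA.

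The 3 proteins of plasma lipid transfer and esterification had values below 0. PLTP, the phospholipid transfer protein, had 1567 counts in FFA and 1087 in FFA + 9-cis-RA, at -0.50 (-0.61 to -0.39). LCAT, which esterifies cholesterol in HDL, had 934 and 768 counts, at -0.25 (-0.39 to -0.12). CETP, which moves cholesteryl ester from HDL to VLDL, had 16 and 7 counts, and its value of -1.06 had an interval that held 0 (-2.69 to 0.20). CETP is therefore past -1 on counts too few to show a difference.

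The sterol efflux transporters differed little. ABCA1, which hands cholesterol to APOA1, had 3103 counts in FFA and 3309 in FFA + 9-cis-RA, at 0.12 (0.049 to 0.19). ABCG5 and ABCG8 encode the subunits of one sterol exporter and overlap on opposite strands of chromosome 2. ABCG5 had 1347 and 1334 counts, at 0.014 (-0.097 to 0.12), and ABCG8 had 980 and 823 counts, at -0.22 (-0.36 to -0.089). The ratio of ABCG8 to ABCG5 differed by -0.24 (-0.41 to -0.065) on the log2 scale, so the values of the pair were not the same beyond counting error. ABCG1, the transporter that loads HDL in macrophages, had 2 counts in each library and was not compared.

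The 5 genes of receptors, sorting and receptor turnover had values above 0, as did 9751 of the 20431 genes compared in all. An interval above 0 was found for 4 of the 5, against 22.5% of all compared genes and 34.4% of those with at least 1000 counts. MYLIP, a ubiquitin ligase that sends VLDLR to lysosomes and a textbook LXR target, had 81 counts in FFA and 136 in FFA + 9-cis-RA, at 0.77 (0.37 to 1.19). SORT1, a sorting receptor that binds APOB on its way through the Golgi, had 5129 and 6289 counts, at 0.32 (0.27 to 0.38). VLDLR, a receptor for APOE-bearing particles, had 1615 and 1766 counts, at 0.16 (0.058 to 0.25). The 2 large uptake receptors were close to level. LRP1, a remnant receptor, had 10597 and 10741 counts, at 0.047 (0.0083 to 0.086), and SCARB1, the HDL receptor, had 11209 and 11223 counts, with an interval of -0.0085 to 0.067. With the length trend removed LRP1 was at 0.0072 with an interval that held 0.

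**Figure D3:**
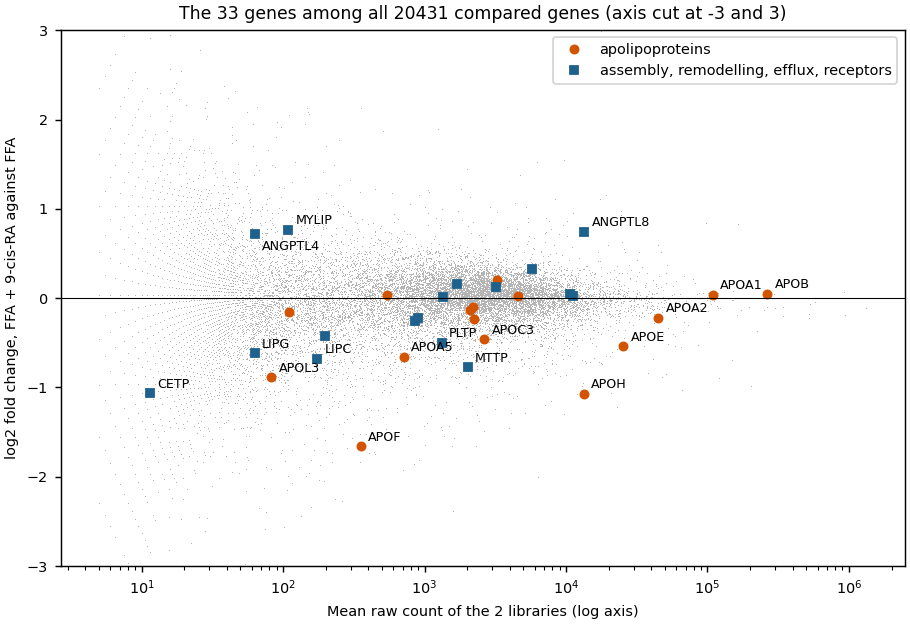
Log2 fold change of FFA + 9-cis-RA against FFA on the vertical axis against the mean raw count of the 2 libraries on a log horizontal axis, with the 33 genes marked over all 20431 compared genes in grey, of which 47 lie outside the plotted range. APOF, APOH, APOE and MTTP lie toward the lower edge of the genes of like count and ANGPTL8 toward the upper edge, while APOA1 and APOB lie near 0.

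Several of these genes are neighbours in the genome, and neighbours did not share 1 value. On chromosome 11, from 116789367 to 116837950, APOA5, APOA4, APOC3 and APOA1 lie within a single cluster and had log2 fold changes of -0.65, -0.24, -0.46 and 0.039. The ratio of APOA1 to APOC3, whose genes lie next to each other, differed by 0.50 (0.42 to 0.58) on the log2 scale, and that of APOC3 to APOA4 by -0.23 (-0.34 to -0.11). On chromosome 19, APOE and APOC1 start 8.46 kb apart, and the ratio of APOC1 to APOE differed by 0.56 (0.50 to 0.63). The ratio of APOC2 to APOC1 had an interval that held 0 (-0.57 to 0.20). On chromosome 22 the ratio of APOL1 to APOL2 also had an interval that held 0 (-0.16 to 0.086). The ratio of APOL3 to APOL6 differed by -1.10 (-1.57 to -0.63), with 108 and 57 counts for APOL3. Those 2 genes are not close neighbours, as their starts lie 518 kb apart with RBFOX2 between them. Other genes within 100 kb of these clusters are plotted beside them. TOMM40, which lies just before APOE, was at -0.0097 (-0.043 to 0.023), and ZPR1, which lies just after the end of APOA5, was at -0.16 (-0.22 to -0.10).

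**Figure D4:**
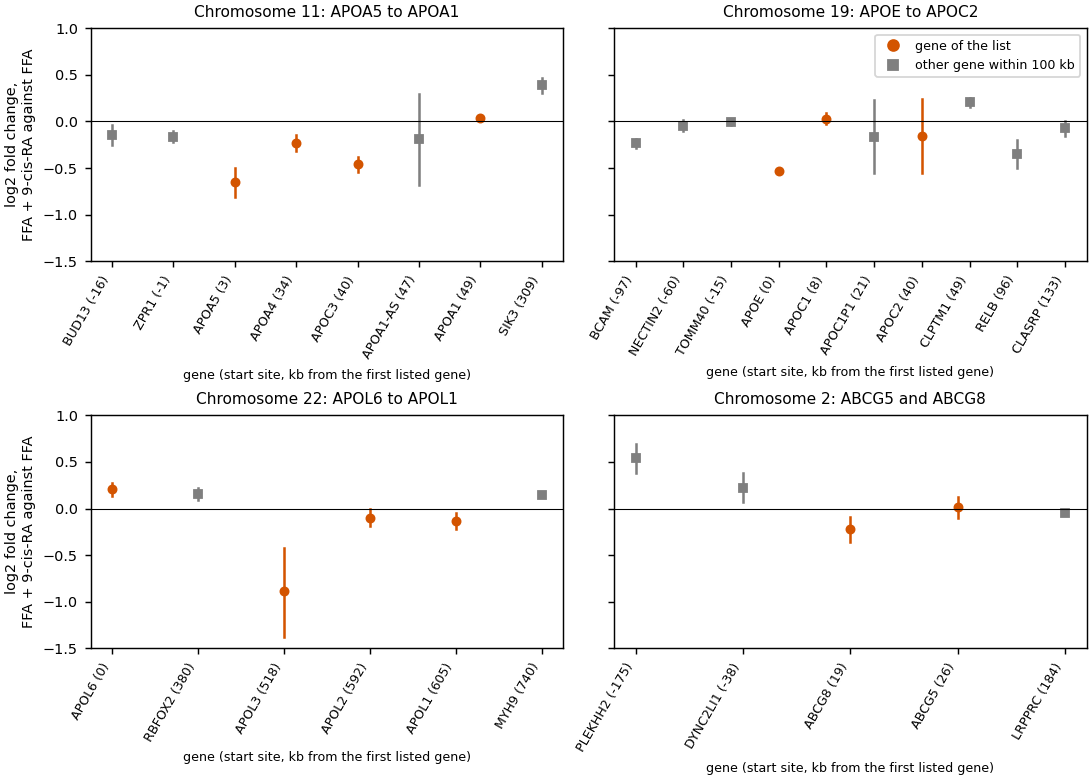
Log2 fold change of FFA + 9-cis-RA against FFA with exact 95% counting intervals for genes of the list (circles) and other genes within 100 kb (squares) at 4 clusters, in order of start site, with the distance of each start from the lowest coordinate of the cluster's listed genes in kb. Genes whose interval spans 1 or more, such as MB, or that have under 10 counts are not drawn. APOE lies at -0.54 between TOMM40 and APOC1, which both lie near 0.

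Across the RefSeq promoter table, 23 of the 36 genes had an entry, with 29 starts in all, and 9 motifs were searched in the 250 bases before each start on both strands. AGGTCA was found before 6 of the 29 starts, which belong to SORT1, MTTP, APOA5, LIPC and APOC2, against 12.1% of the 35114 starts searched. Of those 5 genes, SORT1 was higher, MTTP, APOA5 and LIPC were lower, and the interval of APOC2 held 0. Whether these letters have a part in the values was not tested. TATAAA was found before 5 starts, against 10.7% of all, and CCAAT before 9, against 32.0%. The E-box CACGTG was found before 2 starts, of ABCA1 and APOA5, against 6.35%. Exact letters of longer sites were rare, and an HNF1 site was found before LIPC alone, against 0.0484% of all starts. Direct repeats of AGGTCA with 1 or 4 bases between, the HNF4A core CAAAGTCCA and the sterol element TCACNCCAC were found before none of the 29. The half-site stands inside the repeats, so these searches overlap, and no match says only that these letters are not in this window.

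Another 61 genes of lipoprotein metabolism, listed by their role but with earlier results of these data known, were set beside these. Of them 53 were compared, and their median was -0.023. An interval above 0 was found for 18 and one below 0 for 21, against 22.5% and 25.7% of all compared genes. With at least 1000 counts it was 16 and 16 of 44, close to the shares of 34.4% and 34.7% among all such genes. FURIN and OLR1 were above 1, against 3.37% of all compared genes, and CD36, PON1, SAA4 and STAB2 were below -1, against 4.90%. OLR1 had 2 and 8 counts, STAB2 had 11 and 3, and SAA4 had 23 and 6. FURIN, a proprotein convertase that cuts endothelial and lipoprotein lipase, had 11177 counts in FFA and 23494 in FFA + 9-cis-RA, at 1.10 (1.07 to 1.13). PCSK6, a related convertase, had 5704 and 7037 counts, at 0.33 (0.28 to 0.38). PCSK5, of the same family, went the other way, with 875 and 539 counts at -0.67 (-0.83 to -0.51). It was added after its value was seen. Among the genes with at least 100 normalized counts, the lowest values were those of CD36, a fatty acid transporter, with 346 and 94 counts at -1.84 (-2.20 to -1.52), and PON1, an esterase bound to HDL, with 149 and 43 counts at -1.74 (-2.29 to -1.27). CIDEB, a lipid droplet protein needed for the lipidation of VLDL, had 2590 and 1442 counts, at -0.82 (-0.91 to -0.72), near the value of MTTP. Receptors, adaptors and genes of receptor turnover on the longer list did not share the direction of the 5 described above. Of 14 compared, 3 had an interval above 0 and 6 had one below 0, with a median of -0.067.

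Of the 15 assembly and export genes in this longer list, all of which had at least 1000 counts, CIDEB was the one past 0.5 in either direction, against 1.73% above 0.5 and 4.38% below -0.5 among all such genes. P4HB, the partner subunit of MTTP in its complex, had 82242 and 73626 counts, at -0.13 (-0.15 to -0.12), and was singled out after its value was seen, as was SAR1B, the small GTPase of chylomicron export, at 0.060 (0.0024 to 0.12). P4HB was thus also below 0, but nearer to 0 than MTTP.

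**Figure D5:**
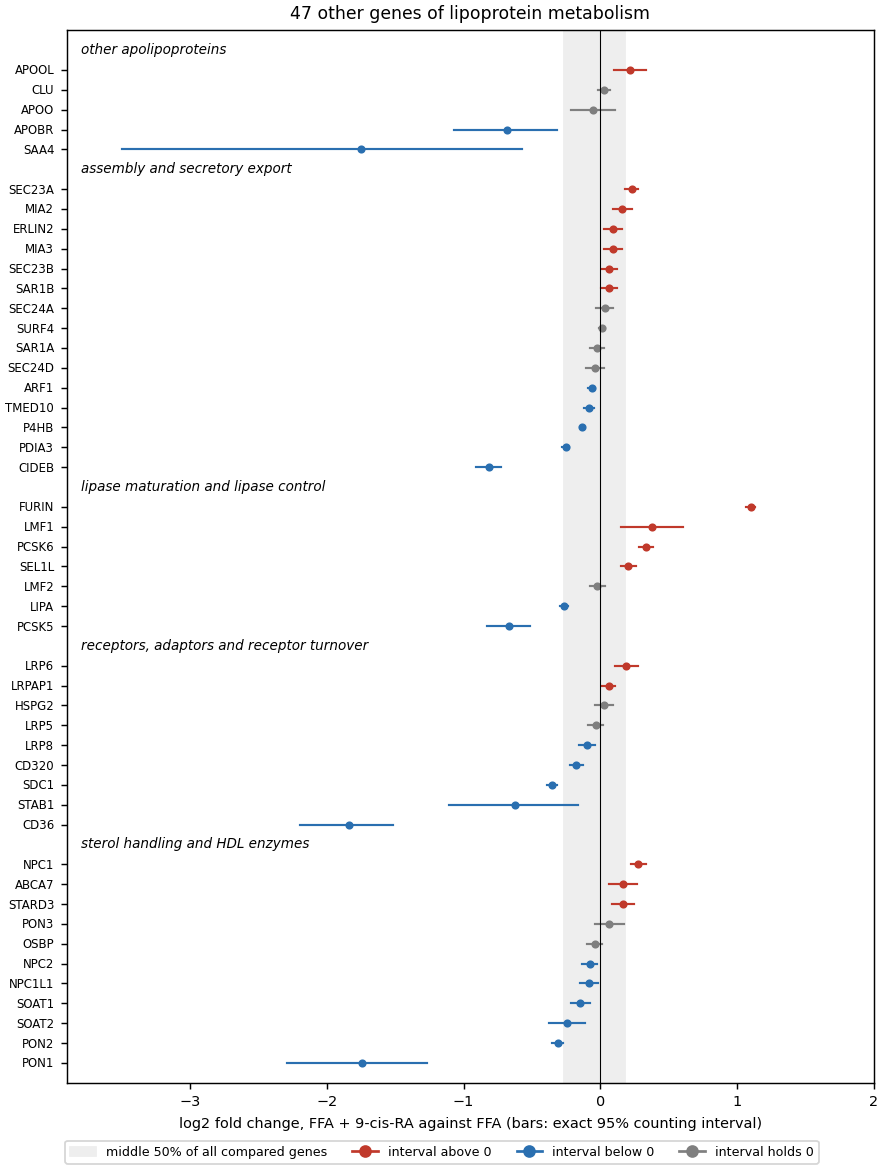
Log2 fold change of FFA + 9-cis-RA against FFA for 47 other genes of lipoprotein metabolism with at least 10 counts, by role, with exact 95% counting intervals and a grey band for the middle 50% of all compared genes (OLR1 and STAB2, whose intervals span 4 or more, are among the genes not drawn). FURIN lies above 1, and CD36, PON1 and SAA4 lie below -1. The assembly and export genes other than CIDEB lie between -0.25 (PDIA3) and 0.23 (SEC23A).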

How the data were processed

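Poly(A) RNA of HepG2 cells was sequenced from stranded libraries, 1 per group. The authors deposited raw counts per gene from featureCounts version 2.0.1 (per the file headers) on GRCh38 (per the submitters' processing notes, which also name DESeq2). Fragments needed both mates aligned and an accepted length, and strand setting 2 was used. Multi-mapping fragments and those shared by genes were left out, so genes that overlap on a strand lose counts. The aligner and annotation release are not given in the sources used here.

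The 60623 entries were matched to symbols, and 60295 had one. The members and gene lists were chosen with earlier results of these data known. All listed members are named. Of the longer list, the 3 highest and 3 lowest genes by the interval bound closest to 0, among those with at least 100 normalized counts, were named. Some genes of that list that the rule names are not reported here. Size factors came from DESeq2 version 1.42.0 (TMM: edgeR version 4.0.16, R version 4.3.3). Log2 fold changes used a pseudocount of 1, which understates changes of low genes, over 20431 genes with at least 10 counts. Exact Clopper-Pearson intervals of each gene's share of counts, Poisson intervals of levels and loess trends (span 0.3) used Python 3.11.15, scipy 1.17.1, pandas 2.3.3, numpy 2.4.6 and statsmodels 0.14.6, and plots matplotlib 3.10.9. Intervals of ratios of 2 genes used the summed reciprocal counts. Intervals and floors (3 counts) cover counting error only. Steps were tested on simulated counts drawn with counting error only, so that test says nothing about the spread between cultures. Promoters came from RefSeq (GRCh38.p14). For 19 of 23 members the first 30 bases after a start were found in a GENCODE transcript of the gene. A match at any 1 start of a gene was enough, so each printed start was not checked on its own.

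The alternatives tried were scaling by TMM or by total counts, a pseudocount of 0.1 or 5, no minimum or 50 counts, levels without length, the whole interval past 1, trends on length and mean expression removed, and, added after the data were seen, the trend on GC content removed.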

Additional observations from a re-analysis of the deposited data

How the results depend on the processing

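For 52 genes, the 33 members compared among them, values were recomputed under 9 alternatives. Of 464 values, 418 stayed within the main counting interval, 46 moved past it and 0 changed sign where the main interval excluded 0. The 418 include the 52 values without a minimum and the 48 with at least 50 counts. Those could not move, because the minimum does not enter the value of a gene. The 52 values with each pseudocount also all stayed within the interval. The 46 moves thus came from the other scalings and the removed trends. Of 52 values each, 4 moved with TMM and 11 with total-count scaling. With a trend removed, 11 moved for length, 9 for expression and 11 for GC. Intervals above 0 numbered 10 to 12 and intervals below 0 numbered 15 to 17 among the members. Calls ended for APOL2 (-0.077 with TMM, -0.047 with total-count scaling, -0.053 with the length trend and -0.048 with the GC trend removed), APOL1 (-0.083 with total-count scaling, -0.087 with the GC trend removed), LRP1 (0.0072, length trend removed) and LIPG (-0.52, expression trend removed), while APOC1 and SCARB1 gained an interval above 0 under 3 and 4 of them. The number of listed genes above 1 was 0 under all of them, the number below -1 was 2 or 3, and the median of the list ran from -0.16 with a pseudocount of 0.1 to -0.092 with the length trend removed. APOH was at -0.96 with the length trend removed, and CETP at -0.94 with the expression trend removed and -0.79 with a pseudocount of 5. In the longer list, the number above 1 was 1 with a pseudocount of 5, 4 without a minimum and 1 with at least 50 counts, and the number below -1 was 2 with at least 50 counts, a minimum that drops OLR1, STAB2 and SAA4. Its median was 0.026 with total-count scaling and 0.014 with the GC trend removed. The median of all compared genes moved by less than 0.1 under every alternative. Without division by length, APOB ranked 1 among the listed genes in FFA, against 3 per length. With 1 library per group no library could be left out. No paired analysis was possible because each group has 1 library. Depth limits APOC2, CETP, APOD, ABCG1 and LPL.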

Other observations

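Other genes within 100 kb of the lipoprotein gene clusters gave a few values that stand out, all chosen after they were seen. MB, the myoglobin gene, lies next to APOL6 on chromosome 22 and had 38 counts in FFA and 119 in FFA + 9-cis-RA, at 1.65 on the log2 scale (95% counting interval 1.14 to 2.24). APOL6 itself was at 0.21. PLEKHH2, before the pair ABCG5 and ABCG8 on chromosome 2, had 556 and 792 counts, at 0.54 (0.38 to 0.70), and SIK3, a kinase gene beyond APOA1 on chromosome 11, had 2073 and 2661 counts, at 0.39 (0.30 to 0.47). RELB, an NF-κB subunit gene after the APOE cluster on chromosome 19, had 851 and 656 counts, at -0.35 (-0.50 to -0.20). All compared genes within 100 kb that are not on the list, those 4 included, had medians of -0.16 at chromosome 11 over 4 genes, -0.044 at chromosome 19 over 11 genes, 0.16 at chromosome 22 over 3 genes and 0.22 at chromosome 2 over 3 genes. With 1 library per group, a difference between the cultures and the treatment cannot be told apart for any of these values.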
